A study of Mus musculus with 16 samples.

Results

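Subcluster EC7 is one of the 9 groups into which the authors divided the endothelial cells of the pressure-overloaded mouse left ventricle. Its members are the cells that the authors' deposited annotation gives the subcluster name EC7. There are 65 of them among 1858 annotated endothelial cells (EC) and 11492 cells in all. Single cells of the left ventricle were sequenced from 16 male mice of the TAC model, in which transverse aortic constriction narrows the aorta and makes the ventricle pump against a raised pressure. The labels give the mice by disease stage: 0w (2 mice), 2w (2), 5w (7), 8w (3) and 11w (2). They give no strain or age and do not say whether the 0w mice had surgery. Tissue was digested in either of 2 ways: with protease XXIV and collagenase II after slicing to enrich myocytes, or with a papain-containing enzyme to enrich the other cells. The labels do not say which plate came from which digestion. Besides EC, the annotation names cardiomyocytes (CM), fibroblasts (FB), macrophages (MP), T cells (T) and granulocytes. The cells came from 12 plates, named here by letter. Plates A and B hold 0w cells, C and D 2w, E 5w and 8w, F, G and H 5w, I and J 8w, and K and L 11w.

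The endothelium of the heart differs by vessel. Capillary cells take up fatty acids for the myocytes around them and are known for Cd36, Fabp4 and Gpihbp1. Venous cells carry Vwf and the leukocyte receptors Vcam1 and Selp, lymphatic cells Prox1 and Ccl21a, and the endocardium that lines the chamber Npr3, Plvap and Cytl1. Pecam1 and Cdh5, a junctional adhesion molecule and the cadherin of endothelial junctions, mark all of these beds.

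Median depth outside the mitochondrial genome was similar to that of the remaining EC. The EC7 cells held a median of 18219 UMIs (counted molecules) outside the mitochondrial genome, from 3208 to 174418, and a median of 2147 detected genes. The 1793 other EC held medians of 17105 such UMIs and 1327 genes. Counting all UMIs, the medians were 52628 in EC7 and 31961 in the other EC. Within mice the order of the non-mitochondrial medians varied: 54449 in EC7 against 17519 in replicate 1 of 0w, and 11608 against 18221 in replicate 2 of 0w. Mitochondrial transcripts took a median of 60.2% of all UMIs in EC7 and 37.5% in the other EC. Levels are given as CPM, the UMIs of a gene scaled to 1e6 non-mitochondrial UMIs, from summed counts unless said otherwise. The deposited cell names of all plates were distinct, and 0 were shared between libraries.

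The endothelial label and the leading genes of EC7 point to different cell types. At least 1 UMI of Pecam1 was present in 43 of the 65 cells (66.2%), of Cdh5 in 39, and of either in 50 (76.9%, exact 95% binomial interval 64.8 to 86.5%, which covers counting error only). At least 3 of the 11 endothelial genes listed were detected in 52 cells (80.0%). At least 3 UMIs were held by 24 cells for Pecam1 (36.9%) and 26 for Cdh5, against 10.7% of CM and 9.12% of MP for Pecam1 and 21.97% of CM and 13.7% of MP for Cdh5. The genes most above the other EC were those of heart muscle, and the cells are therefore called by their subcluster name here.

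EC7 came almost wholly from plates made up of cardiomyocytes. On 5 plates (A, C, G, H and J) CM were 77.6 to 93.8% of the annotated cells, and there 59 of the 92 EC were EC7 (64.1%, exact 95% interval 53.5 to 73.9%). On the other 7 plates, where CM were 0 to 43.1% of cells, 6 of 1766 EC were EC7 (0.340%, 0.125 to 0.738%). These 5 plates thus supplied 90.8% of the subcluster. By plate, EC7 was 11 of 12 EC on A, 15 of 15 on C, 10 of 16 on G, 2 of 14 on H and 21 of 35 on J. Plate E gave 3 of 316, K 2 of 130 and B 1 of 708, and D, F, I and L gave none. No other subcluster was tied to these plates in this way: 12.4% of EC6 cells were on them, and 0 to 2.25% of each remaining subcluster. The division at 50% CM was set after the plates were seen. With it at 40%, which adds plate K, the share was 61 of 222 EC (27.5%).

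**Figure D1:**
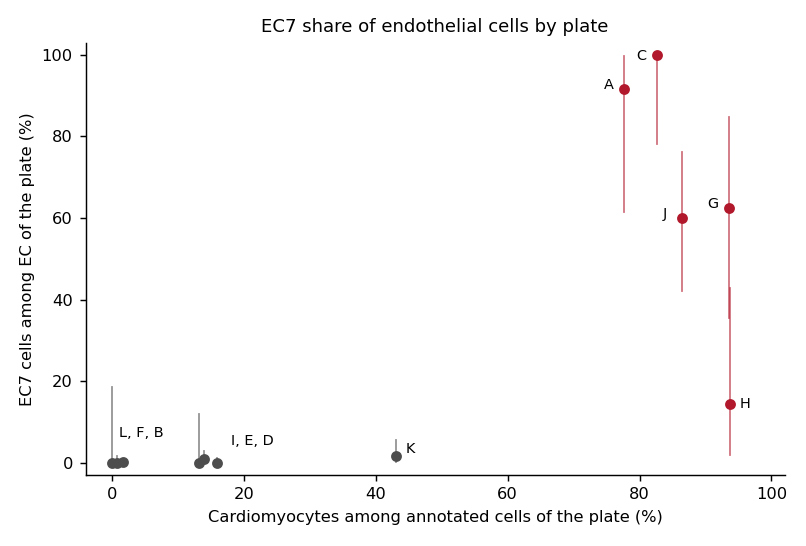
Each point is 1 plate; the x axis gives cardiomyocytes among annotated cells of the plate (%), the y axis EC7 among its EC (%), with exact 95% binomial intervals as vertical lines and plates above 50% cardiomyocytes in red. The 5 myocyte-rich plates lie between 14.3 and 100% EC7, and the other 7 between 0 and 1.54%.

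Every cell type on the myocyte-rich plates carried much cardiomyocyte RNA, and EC7 carried about as much as the macrophages and T cells there. The 12 cardiomyocyte genes listed, which encode the sarcomere, calcium handling and myoglobin, summed to a median of 56248 CPM per EC7 cell on these plates. The same sum was 74466 in CM, 65591 in MP, 51805 in T, 33029 in FB and 19360 in the 33 other EC. On the remaining plates it was 24955 in the 6 EC7 cells, 3977 in other EC, 2260 in MP, 4434 in T and 1874 in FB. Macrophages of the 2 kinds of plate therefore differed far more in these genes than EC7 and macrophages of the myocyte-rich plates did. The part that this RNA plays in the assignment of cells to EC7 was not tested.

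Plate by plate, the cardiomyocyte RNA of EC7 was near that of MP on C, G and J and lower on A. The cardiomyocyte list had EC7 medians of 32819 CPM on plate A, 99081 on C, 52085 on G and 45118 on J. In MP of the same plates the medians were 48879, 94069, 57258 and 47083, and in CM they were 60216, 110610, 77472 and 59015. Plate C was highest in all 3 cell types. Myh6, the main myosin heavy chain of the mouse ventricle, was at 6031, 13876, 4835 and 4857 CPM in EC7 of plates A, C, G and J. It was at 6263, 16040, 4945 and 4164 in MP and at 8135, 19528, 6486 and 5337 in CM. Cox8b, a muscle isoform subunit of cytochrome c oxidase, was at 3579, 5033, 2471 and 5086 in EC7 and at 3387, 3833, 4054 and 4204 in MP, so that EC7 was the lower on plate G and the higher on the other 3. None of the 12 listed genes differed from both CM and MP by a mean of at least 1 on the log2 scale with the same sign on all 4 plates.

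Endothelial RNA was higher in EC7 than in MP and CM of its plates, but it was not the only list to be so. The 11 endothelial genes summed to medians of 1233, 1087, 1915 and 1638 CPM in EC7 of plates A, C, G and J, against 322, 204, 63.4 and 86.5 in MP and 519, 477, 451 and 195 in CM. EC7 was above both types on each of the 4 plates. It was not the highest endothelial group there: over the 5 myocyte-rich plates the median was 1638 CPM in EC7 and 4057 in the 33 other EC. The macrophage list was at 76.7, 124, 0 and 0 in EC7 against 3792, 4398, 8882 and 3983 in MP.

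**Figure D2:**
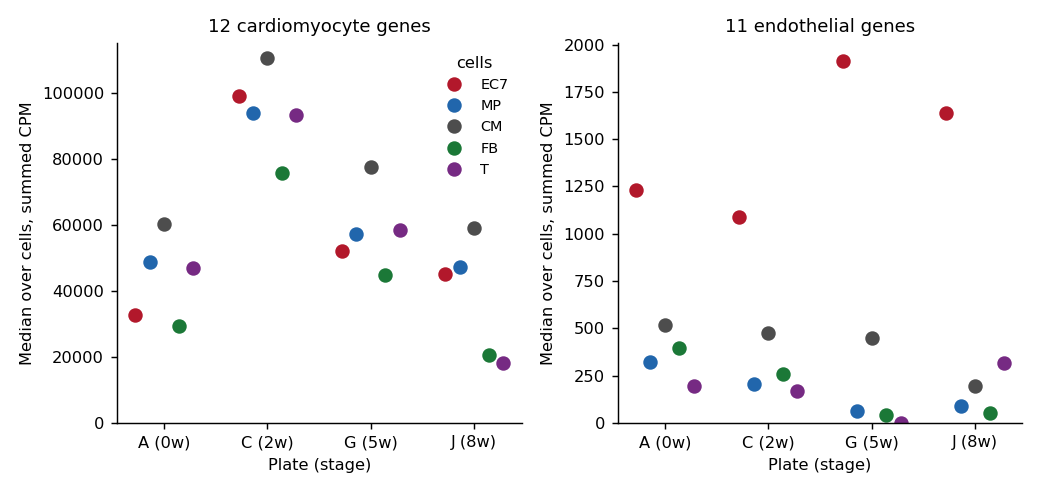
Median over cells of the summed CPM of the 12 cardiomyocyte genes (left) and the 11 endothelial genes (right) in EC7 and in 4 other cell types of plates A (0w), C (2w), G (5w) and J (8w). On the left EC7 lies among the other types of its plate, and on the right it is the highest of the types shown. Other EC are not shown.

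A comparison of EC7 with CM and MP of the same plate was therefore made on the 4 plates that hold at least 10 EC7 cells, a choice made after the plates were seen. It is a description without a test, since the genes of these cells defined the subcluster. A gene counted as higher when the mean difference of log2(CPM + 10) was at least 1 against each type and had the same sign on every plate. Of 6938 genes, 99 were higher than in both types (1.43%) and 192 lower than in both (2.77%). Of the 6 endocardial genes listed, the 4 that passed the level filter did so through EC7 alone, so that their higher level there was nearly fixed by the filter and their count is no support; the other 2 are described with them. Of the 7 venous genes that passed, of 9 listed, 3 were higher (medians 2.21 and 2.03). The same medians over all genes were -0.11 and -0.09.

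The 4 endocardial genes that passed were Npr3, Cytl1, Plvap and Smoc1. Npr3, the clearance receptor for natriuretic peptides, was at 463, 203, 998 and 382 CPM in EC7 of plates A, C, G and J. In CM it was at 7.88, 4.62, 6.88 and 17.5, and in MP at 7.39, 1.25, 0 and 2.59. The groups did not overlap, and the mean log2 difference was 4.58 ± 0.97 (SD over 4 plates) against CM and 5.16 ± 1.04 against MP. Cytl1, a small secreted protein, was at 283, 20.5, 1098 and 58.5 CPM in EC7 and at 0.852 to 11.9 in CM. Its level in EC7 varied widely between plates and was lowest on C. Plvap, which forms the diaphragms of endothelial caveolae and fenestrae, was at 74.0, 72.7, 26.8 and 72.0 in EC7 against 2.48, 2.81, 1.24 and 5.36 in CM. Smoc1, a secreted matrix protein, was at 41.3, 61.5, 6.70 and 63.0 against at most 0.255 in CM. The other listed endocardial genes did not follow: Hapln1 had no UMI in EC7 of these plates, and Nfatc1, the transcription factor of valve endocardium, was at 15.2, 0, 0 and 6.75 CPM in EC7 against 5.79, 9.76, 8.31 and 10.5 in CM.

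Vwf and Vcam1 were among the venous genes higher on all 4 plates. Vwf, the clotting glycoprotein stored in endothelial cells, was at 481, 542, 643 and 904 CPM in EC7. In CM it was at 9.22, 10.9, 12.1 and 25.6, and in MP at 3.01, 10.6, 64.3 and 2.59. The log2 difference against CM was nearly equal on the 4 plates (4.74 ± 0.097), and that against MP was 4.83 ± 1.27. Vcam1, an adhesion receptor for leukocytes, was at 222, 102.5, 422 and 515 in EC7 against 30.4, 24.4, 11.7 and 37.3 in CM. Selp, the adhesion molecule P-selectin, was high on 2 plates only in EC7, at 65.3, 0, 6.70 and 610 CPM. Nr2f2, the transcription factor of venous identity, was at 178, 39.1, 20.1 and 54.0 CPM in EC7 and at 14.7, 6.74, 35.9 and 15.04 in CM, so that the order was reversed on plate G.

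The general endothelial genes were less distinct. Emcn, a surface sialomucin, was the one member of the endothelial list higher on all plates, of 10 that passed, with 318, 121, 261 and 326 CPM in EC7, 41.6, 46.2, 95.6 and 42.3 in CM, and 20.3, 11.1, 7.80 and 3.88 in MP. Pecam1 was at 490, 46.6, 308 and 169 in EC7 and 62.9, 57.4, 75.6 and 44.5 in CM, and plate C was the exception to its higher level. Cdh5 was at 218, 108, 167 and 148 in EC7, at 172, 144, 277 and 184 in CM and at 82.4, 39.4, 35.1 and 29.8 in MP. Kdr and Flt1, the VEGF receptors, were at 102.2, 199, 395 and 133 and at 733, 278, 248 and 412 in EC7, and at 126, 138, 213 and 129 and at 233, 137, 338 and 186 in CM. Cdh5, Kdr and Flt1 of EC7 thus lay partly within the range of CM on these plates. Tie1, an endothelial receptor kinase, and Eng, a TGF-beta co-receptor, were above both types on all 4 plates but just short of the fold used, with mean log2 differences against CM of 0.99 ± 0.51 and 0.99 ± 0.27.

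Capillary genes of EC7 lay near those of the cardiomyocytes beside it, and the order depended on the measure. Per cell, the list's medians were 3617, 1584, 1946 and 1210 CPM in EC7 of plates A, C, G and J. They were 3516, 2075, 1679 and 946 in CM, so that EC7 was lower on plate C only. By summed counts EC7 was above CM on plate A (6318 against 5257) and below it on C, G and J. None of the 12 genes that passed was called higher than in both types, and their median log2 differences were -0.49 against CM and 0.84 against MP. Gpihbp1, which carries lipoprotein lipase to the capillary surface, was at 357, 136, 275 and 22.5 CPM in EC7, at 380, 288, 300 and 91.0 in CM and at 219, 57.3, 29.2 and 32.4 in MP. Cd36, a fatty acid transporter, was at 1978, 563, 609 and 589 in EC7 and at 1627, 1060, 920 and 842 in CM. Fabp4, a fatty acid binding protein, was at 2776, 421, 623 and 778 against 2358, 1120, 1120 and 671. Plate A held the highest EC7 level of each of the 3 genes. Lpl, lipoprotein lipase, which myocytes make, was at 2957, 3172, 2632 and 2925 in EC7 and at 4409, 4814, 3011 and 3347 in CM.

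**Figure D3:**
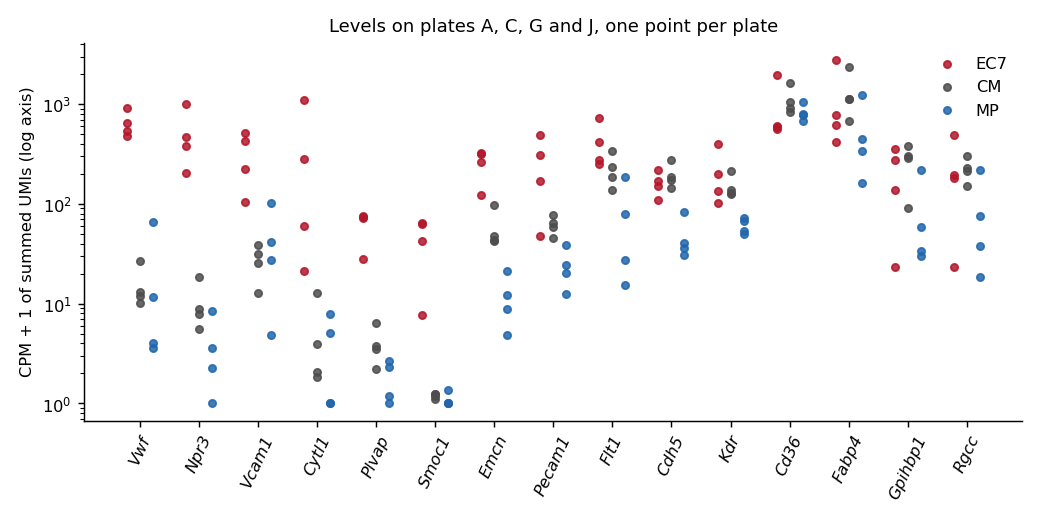
Level of 15 genes (CPM + 1, log axis), with 1 point per plate (A, C, G and J) in EC7, CM and MP. Vwf and Npr3 of EC7 lie above every CM and MP point, whereas Cdh5, Kdr, Cd36, Fabp4, Gpihbp1 and Rgcc overlap those of CM.

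Arterial genes showed 1 of 9 higher: Bmx, a tyrosine kinase of arterial and endocardial endothelium, at 10.9, 70.8, 275 and 67.5 CPM in EC7 against 0.183 to 2.20 in CM. Of the lists that describe endothelial state, coagulation had 2 of 7 higher (Vwf and the anticoagulant receptor Thbd, at 381, 96.9, 496 and 139 against 48.8, 23.0, 52.9 and 53.4 in CM). Leukocyte adhesion had 2 of 8 (Vcam1 and the chemokine Cx3cl1), matrix and basement membrane 2 of 16 (Mgp and Bgn), immediate early genes 1 of 22 (Cyr61) and fatty acid uptake 1 of 9 (Fabp5). Bmx and Cx3cl1 passed the level filter through EC7 alone. Their higher level was thus nearly fixed by the filter, and their calls are no support. Of 16 interferon genes 0 were higher and 2 lower. None of the 7 cell cycle genes or 5 Notch genes that passed was higher or lower. No T cell, B cell, natural killer or granulocyte gene of the lists passed the level filter.

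Several genes outside the lists stood as far above both neighbours, and were picked after their values were seen. Igf2, an insulin-like growth factor, was at 205, 265, 147 and 182 CPM in EC7 of plates A, C, G and J against 12.6, 8.56, 10.4 and 8.83 in CM, and was detected in 12 cells. H19, the imprinted non-coding RNA encoded beside it, was at 13.1, 83.9, 328 and 277. Igfbp5, which binds insulin-like growth factors, was at 442, 341, 562 and 412 against 45.5, 44.0, 27.3 and 57.4. Ece1, the endothelin-converting enzyme, was at 178, 498, 629 and 398 against 47.7, 43.6, 57.7 and 41.2. Igf2 and H19 passed the level filter through EC7 alone, so that their higher level there was nearly fixed by it. All 4 genes were above CM on each plate. The 15 genes with the largest differences, these among them, stayed higher in all alternatives run. Leaving out a plate cannot change the sign of a gene that is higher on all 4, so that this is no support. Of the 15, Npr3, Cytl1, Tmem2, Tmem108, Bmx, Gpm6a and Acvr1 also passed the level filter through EC7 alone. Some of the 15 rested on few cells: 1 cell gave 69.7% of the EC7 UMIs of Spon1 and 62.4% of those of Acvr1.

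These genes are not particular to EC7 among the endothelial subclusters. Of the 94 higher genes that are not predicted genes, the highest other subcluster was EC9 in 46 and EC8 in 18, and EC7 was the highest of all 9 in 8. Summed over cells, Vwf was at 581 CPM in EC7 and 1757 in EC9, Npr3 at 344 and 828.9, Cytl1 at 239 and 1903, and Igf2 at 260 and 437. EC9 was the higher subcluster in each of them. Over mice with at least 5 cells, Vwf ran from 25.0 to 1922 CPM in EC7 (median 564, 7 mice) and from 921 to 4425 in EC9 (median 1653), so that the ranges overlapped. Npr3 ran from 0 to 1065 (median 336) against 423 to 1912 (median 862).

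Single EC7 cells differed in which bed they resembled. At least 3 UMIs of Vwf were found in 28 of the 65 cells (43.1%, exact 95% interval 30.8 to 56.0%), of Npr3 in 22 (33.8%, 22.6 to 46.6%) and of both in 16 (24.6%). In CM, which should lack them, the shares were 1.43% for Vwf and 1.31% for Npr3, and in MP 1.71% and 0.570%. Both genes were thus far above the background in cells of other types, whose median depths were 12077 UMIs in CM and 16991 in MP. Gpihbp1 reached 3 UMIs in 19 EC7 cells (29.2%), in 26.8% of CM, 21.1% of MP and 23.8% of T, and in 56.9% of the other EC. Its share in EC7 is near that background. Only 4 EC7 cells held at least 3 UMIs of both Gpihbp1 and Vwf. The limit of 3 UMIs was chosen after the cells were seen.

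With every cell thinned to 3000 UMIs, which left out 399 CM, 21 MP, 91 other EC and 0 EC7 cells, the order held. A Vwf UMI was then present in 26 EC7 cells (exact 95% interval of the share 28.0 to 52.9%), 2.21% of CM, 2.12% of MP and 13.7% of other EC, and an Npr3 UMI in 29.2%, 1.75%, 1.52% and 9.75%. Gpihbp1 was present in 24.6% of EC7, 26.3% of CM, 14.2% of MP and 58.3% of other EC. Cdh5 was present in 32.3% of EC7, 24.0% of CM, 11.8% of MP and 40.8% of other EC. In the other EC of the myocyte-rich plates, of which 32 could be thinned, the exact 95% intervals of these shares were 11.5 to 43.4% for Vwf, 5.28 to 32.8% for Npr3, 16.1 to 50.008% for Gpihbp1 and 23.7 to 59.4% for Cdh5. All 4 overlap the intervals of EC7. Against all other EC, the pooled Vwf and Npr3 shares of EC7 were higher and that of Gpihbp1 lower. The EC7 interval for Cdh5 (21.2 to 45.1%) holds the share of the other EC. These intervals cover counting error only, and cells are not replicates, so they decide no difference between groups. Without thinning the EC7 shares varied by plate: Gpihbp1 reached 3 UMIs in 63.6% of cells on A and 4.76% on J, and Vwf in 27.3% and 61.9%. A UMI of Myh6 was present in 100% of EC7 cells and in 41.8% of the other EC. Ptprc, the leukocyte antigen CD45, and Cd3d, a T cell receptor chain, were found in 0 EC7 cells after thinning.

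A smaller set of EC7 cells carried lymphatic genes. At least 3 UMIs of at least 3 of the 9 lymphatic genes were found in 10 cells (15.4%, 7.63 to 26.5%), against 14 of 4056 CM (0.345%), 0.855% of MP and 3.96% of other EC. They lay on plates A (1 cell), C (5), E (1), H (1) and J (2). Their UMIs of Ccl21a, the chemokine of lymphatic vessels, ran from 0 to 894 per cell, and 1 cell gave 48.6% of the 1840 Ccl21a UMIs of EC7. Prox1, the transcription factor that sets lymphatic identity, was detected in 12 EC7 cells, and 1 cell gave 49.5% of its 218 UMIs. It reached 3 UMIs in 10.8% of EC7 and also in 8.46% of CM and 7.69% of MP, so that Prox1 alone does not separate EC7 from its neighbours. Among the 10 lymphatic-gene cells Prox1 was found only in cells of plates C (13 and 108 UMIs) and H (11). Most of the 12 cells with Prox1 thus lay outside this set. Of the 10 cells 2 also held at least 3 UMIs of Vwf. One of these, the cell of plate A, held 125 Vwf UMIs and none of Prox1, Ccl21a, Mmrn1 or Reln.

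Sorted by these genes, the 65 cells fell into 10 with lymphatic genes, 26 others with at least 3 Vwf UMIs and 29 with neither. Venous genes summed to medians of 180, 3737 and 558 CPM in the 3 sets, lymphatic genes to 7284, 103.4 and 51.2, and endocardial genes to 0, 695 and 0. Capillary genes summed to 1648, 1183 and 2633. The sets were cut by the first of these values, which are a description. All 3 carried cardiomyocyte RNA, at medians of 73980, 46972 and 43998 CPM, and endothelial genes, at 965, 2051 and 1638. The set with neither had the fewest UMIs, a median of 10775 against 30888 and 23504, and the part of depth in this division was not tested. Vwf-positive cells were on each main plate: 3 of 11 EC7 cells on A, 7 of 15 on C, 3 of 10 on G and 13 of 21 on J. One cell of plate G gave 61.7% of the haemoglobin Hba-a1 UMIs of EC7.

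**Figure D4:**
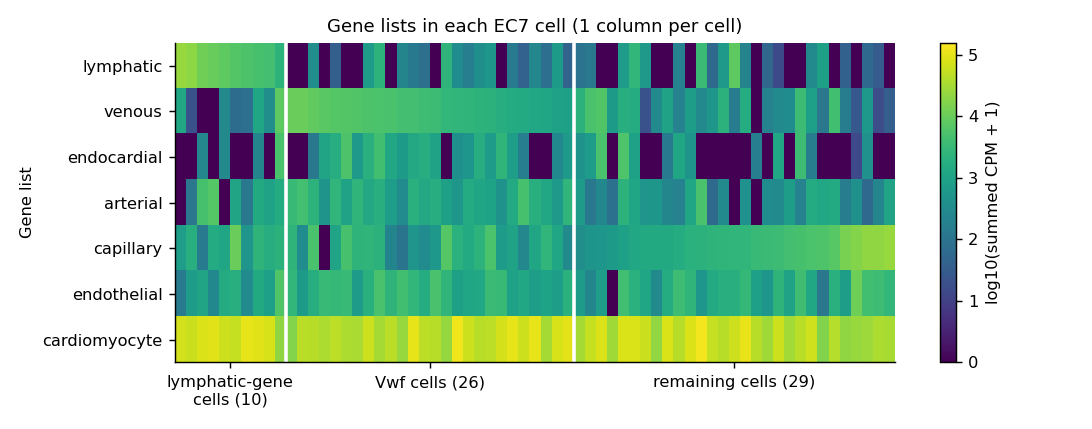
Heat map of the summed level of 7 gene lists (rows; log10 of CPM + 1) in the 65 EC7 cells (columns), with the 10 lymphatic-gene cells, the 26 Vwf cells and the remaining 29 side by side. The cardiomyocyte list is high in all 3 sets, the venous and endocardial lists in the Vwf cells and the lymphatic list in the first set.

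Against the other EC of the same mice, EC7 was higher in heart muscle genes and lower in general and capillary endothelial genes. Only 2 mice, replicates 2 and 3 of 8w, held at least 10 cells on both sides, and all 21 of their EC7 cells were on plate J. Of the 16 other EC of the first mouse 1 was on plate J, and of the 27 of the second 13, so that subcluster and plate cannot be told apart for most of them. Among 6391 genes, 1213 were higher in EC7 (19%) and 1566 lower (24.5%), where a call needs a mean log2 difference of at least 1 and the same sign in both mice. The comparison has no test, since the genes compared also defined the subcluster. Scaled to all UMIs, of which EC7 gave more to mitochondrial genes, 456 genes were higher and 1939 lower, and the median over the same 6391 genes moved from -0.27 to -0.79. All 12 cardiomyocyte genes were higher (median log2 difference 3.50, against -0.27 over all genes), 6 of 11 endothelial genes were lower (median -1.48) and 7 of the 10 capillary genes that passed were lower (median -2.26). With the scaling to all UMIs 12 of 12 cardiomyocyte genes were higher, and 10 of 11 endothelial and 8 of 9 capillary genes were lower.

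The 15 highest named genes were mainly of muscle and its mitochondria. Ndufa11, a subunit of respiratory complex I, was at 1777 and 1627 CPM in EC7 of the 2 mice and at 10.4 and 44.7 in their other EC (mean log2 difference 5.68). Ldb3, a Z-disc protein, was at 540 and 628 against 3.45 and 8.51 (5.23). The others were the Z-disc and sarcomere genes Myoz2, Actn2, Smpx and Sh3bgr, the muscle enolase Eno3, the cytochrome oxidase subunits Cox8b and Cox7a1, the succinyl-CoA ligase subunit Sucla2, the triadin gene Trdn, Hfe2, the small heat shock protein gene Hspb8, the prostaglandin D synthase gene Ptgds, and Selp, with differences of 4.56 to 5.04. Selp was the one endothelial gene among them, at 484 and 836 CPM in EC7 against 0 and 64.9. However, 4 cells gave 97.4% of its 302 UMIs, and only 5 EC7 cells held at least 3, all of them with Vwf. Ldb3, Myoz2, Actn2, Smpx, Sh3bgr, Eno3, Sucla2, Trdn, Hfe2 and Hspb8 passed the level filter through EC7 alone. Their higher level was thus nearly fixed by the filter, and their calls are no support.

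The 10 lowest named genes included all 4 listed haemoglobin genes. Arhgef15, an exchange factor of endothelial cells, was at 14.02 and 0 CPM in EC7 and at 1135 and 368 in the other EC (mean log2 difference -5.41). Asah1, acid ceramidase, was at 0 and 0 against 328 and 616 (-5.52). The others were BC018473, Ttc3, the lipid scramblase gene Ano6 and the mitophagy receptor gene Bnip3l. Arhgef15, Asah1, BC018473, Ttc3, Ano6, Bnip3l and the haemoglobin gene Hbb-bt passed the level filter through the other EC alone. Their lower level in EC7 was thus nearly fixed by the filter, and their calls are no support. The haemoglobin genes Hba-a1, Hba-a2, Hbb-bs and Hbb-bt had differences of -7.03 to -5.44, and their level in the other EC differed widely between the 2 mice: Hba-a1 was at 490 and 41121 CPM. Within plate J the differences of the lowest genes were mostly smaller: Hba-a1 was at 101 CPM in EC7 and 108 in the other EC, BC018473 at 4.50 and 37.8 and Arhgef15 at 8.998 and 128. Ttc3 kept its difference there, at 0 against 753. On plate G, Hba-a1 of EC7 was at 8196 CPM, most of it from the single cell named above.

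Of the general endothelial genes, Pecam1 had a mean of 156 CPM in EC7 and 549 in the other EC (log2 difference -1.80 ± 0.45, SD of 2 mice) and Cdh5 149 and 938 (-2.45 ± 0.89). Kdr was at 113 and 848 (-2.67) and Egfl7, a secreted endothelial protein, at 68.8 and 584 (-2.97). Among capillary genes Gpihbp1 was at 28.6 and 926 (-4.57), Btnl9 at 8.76 and 496 (-4.04), Rgcc at 233 and 1953 (-3.16) and Fabp4 at 837 and 4328 (-2.12). All of these were lower in both mice. Btnl9 passed the level filter through the other EC alone, so that its lower level in EC7 was nearly fixed by it. Vwf was at 1129 and 476 (0.81 ± 1.19) and Npr3 at 313 and 330 (0.33 ± 4.72), and the spread of both exceeded their difference. With the scaling to all UMIs both turned to -0.15 and -0.51.

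The state lists differed in direction, and their counts stand beside the 24.5% of all genes that were lower and the 19% that were higher. The interferon genes were lower in 9 of 10, for example Iigp1 at 3.14 and 319 CPM and Xaf1 at 0 and 299. Both of these passed the level filter through the other EC alone, so that their lower level in EC7 was nearly fixed by it. All 5 angiogenic genes that passed were lower (median -2.07), among them Sparc and Col4a1 of the matrix, as were 4 of 6 class II antigen presentation genes, 5 of 10 heat shock genes and 7 of 14 matrix genes. Hypoxia and glycolysis genes were higher in 6 of 11 and lower in 1 (median 1.46). Against CM of the same plate the hypoxia list had a median of -0.40. Leukocyte adhesion genes were split, 4 higher and 2 lower of 9: the cytokine Il6 was at 195 CPM in EC7 and 7.45 in the other EC, whereas the chemokine Ccl2 was at 43.4 and 984. Il6 passed the level filter through EC7 alone. Immediate early genes were higher in 6 and lower in 3 of 21 (median -0.02), and mesenchymal transition genes higher in 3 and lower in 3 of 11 (median 0.93). The lower share of the adhesion and immediate early lists is at or under the 24.5% of all genes.

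A wider and a narrower comparison gave the same order for muscle and endothelial genes, and for most but not all capillary genes. With mice of at least 5 EC7 cells (6 mice), 241 of 7295 genes were higher (3.3%) and 755 lower (10.3%). All 12 cardiomyocyte genes were again higher, with Tnnt2, cardiac troponin T, higher in 6 of 6 mice (3.74). There 6 of 11 endothelial and 9 of 13 capillary genes were lower, none of the venous, lymphatic or endocardial genes was called in either direction, and Cdh5 was lower in 6 of 6 mice (-2.38 ± 1.10). Within plate J, the one plate with enough cells on both sides, 21 EC7 cells stood against 14 other EC, of which 9 were EC6 and 4 EC9. In this single pair 2518 of 5842 genes were at least 2-fold higher (43.1%) and 1736 lower (29.7%). The cardiomyocyte list stayed higher in 12 of 12, with Myl2, the ventricular myosin light chain, at 10555 CPM against 1756. Pecam1 was at 169 against 1055, Cdh5 at 148 against 516 and Gpihbp1 at 22.5 against 171, all lower in EC7, while Vwf was at 904 against 1108 and Npr3 at 382 against 501. Of 11 endothelial genes 7 were at least 2-fold lower and 0 higher on plate J. Of 10 capillary genes 5 were lower and 2 higher (median -0.93, against 0.56 over all genes). Of 6 lymphatic genes 5 were higher and 0 lower, where 2 of the 21 EC7 cells carried lymphatic genes as defined above. On this plate 1 venous gene was at least 2-fold higher in EC7 and 3 lower, of 7 that passed. The higher one was Selp, at 610 against 98.2. Of 5 endocardial genes 1 was higher (Cytl1, at 58.5 against 0) and 2 lower (Plvap, at 72.0 against 531, and Nfatc1, at 6.75 against 98.2). Cytl1 passed the level filter there through EC7 alone and Nfatc1 through the other EC alone, so that both directions were nearly fixed.

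Among the subclusters EC7 was the extreme in muscle RNA and intermediate in each vessel bed. Over mice with at least 5 cells, the cardiomyocyte list ran from 28381 to 115080 CPM in EC7 (median 51108, 7 mice) and from 15441 to 38374 in EC6 (median 20547, 10 mice), the next highest by summed counts. The capillary list had a median of 2145 in EC7 (1280 to 13496), below EC4 with 21077 and above EC9 with 1628. The venous list had 1935 in EC7 (200 to 5233) and 6894 in EC9 (4843 to 8453), the lymphatic list 451 (12.5 to 4145) against 24867 in EC8 (20238 to 46347), and the endocardial list 538 (12.5 to 2261) against 3885 in EC9 (1402 to 10582). By log2(CPM + 10) of summed counts over 10797 genes, EC7 was most like EC6 (Pearson r = 0.762), EC9 (0.754) and EC5 (0.716), and its correlation with all CM was 0.889. Genes are not independent replicates, and EC7 and most CM share plates.

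**Figure D5:**
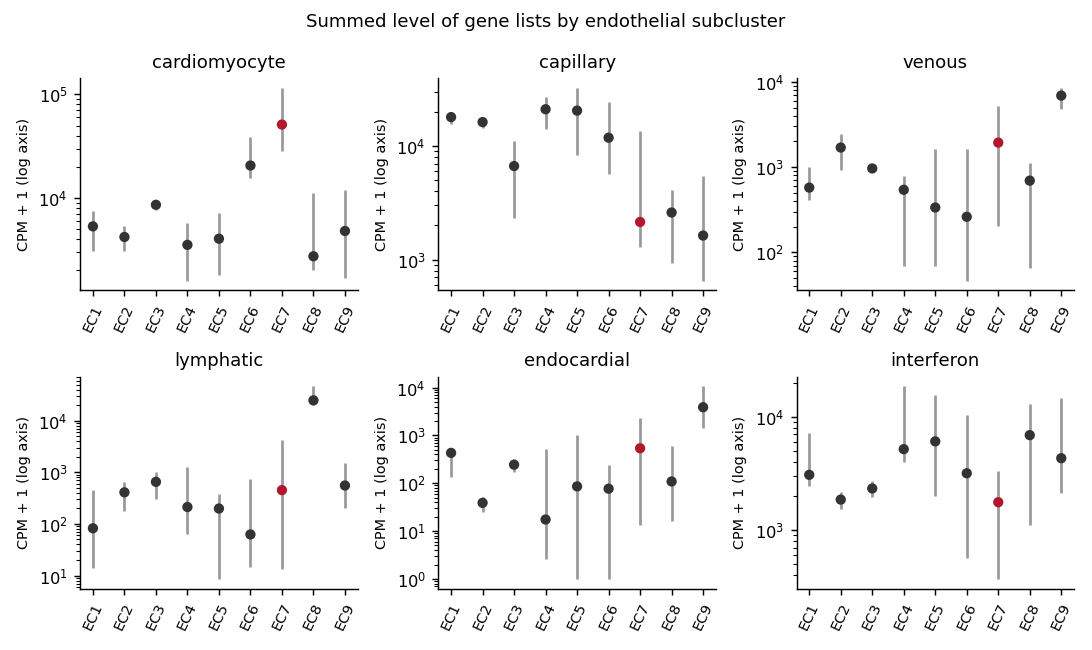
Median (points) and range (lines) over mice with at least 5 cells of the summed level of 6 gene lists in each EC subcluster (CPM + 1, log axes). EC7 is the highest in the cardiomyocyte list and lies between the highest and lowest subclusters in the vessel bed lists.

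In mice with at least 20 EC, the share of EC7 among EC did not differ by stage beyond the spread between mice. Among the 10 mice with at least 20 EC the shares were 1.75 and 1.56% at 0w, 5.26 and 3.09% at 2w, 0% in 1 mouse of 5w (0 of 116, which allows up to 2.59%), 1.5, 40.7 and 27.0% at 8w, and 0.578 and 0.581% at 11w. The other 5w mice had fewer than 20 EC and were left out of this test. In their replicates 2 to 7, EC7 was 0 of 7, 0 of 11, 6 of 6, 4 of 10, 1 of 1 and 1 of 13 EC. All EC of replicates 4 to 7 were on myocyte-rich plates. A permutation test of the stage labels over the 10 mice gave p = 0.234 (adjusted over the 9 subclusters, 0.2818). The late mice (8w and 11w, mean 14.1 ± 18.7% SD, n = 5) exceeded the early mice (0w and 2w, 2.92 ± 1.71%, n = 4) by 11.2 percentage points, with a two-sided exact permutation p of 0.4444 (adjusted 0.5, smallest possible 0.007937). The 2 high mice of 8w are the ones with EC on plate J, and 1 mouse decided the first result: without replicate 1 of 8w, p was 0.00643 (adjusted 0.04731, permutation test). Plates mix few stages, so stage and plate cannot be told apart here.

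Late and early EC7 were compared in the 7 mice with at least 5 EC7 cells (4 early, 1 of 5w and 2 late). The early cells lay on plates A, B and C and the late cells on plate J. Of 6728 genes tested with edgeR's quasi-likelihood test, 0 were higher (0%) and 2 lower (0.0297%) in the late mice at an adjusted p under 0.05, while 610 had an unadjusted p under 0.05. DESeq2 called 14. Rbp7, a retinol-binding protein of capillary endothelium, was at 382, 3055, 57.4 and 71.7 CPM in the early mice, at 339 in the 5w mouse and at 7.01 and 6.28 in the late mice. The log2 difference was -6.73 (SE 1.42, edgeR adjusted p = 0.028618). The late values rest on 3 UMIs in 21 cells, so that the size of the difference is rough. Rbp7 was lower in each late mouse than in any early one, and the other EC of the same mice ran from 2275 to 4143 early and were at 465.9 and 199 late. F830016B08Rik was at 185, 1415, 2578 and 672 CPM early and had no UMI in the late mice among 444522, so that it was at least 168-fold lower, with the floor taken as 3 counts over the group (edgeR adjusted p = 3.026e-06). In the other EC it was at 121 to 354 early and 0 in both late mice, but it was present in other EC of late plates without many EC7 cells, at 164 CPM on plate K and 70.0 on L (both 11w). In CM of plates A, C, G and J F830016B08Rik was at 1626, 2678, 9.36 and 12.5 CPM, and in MP at 2023, 1818, 62.4 and 46.6, so that it was high on A and C and low on G and J in all 3 cell types.

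The marker genes of the subcluster did not pass this test. The late minus early log2 difference was -0.29 for Pecam1 (SE 1.19, edgeR adjusted p = 0.96293), -0.11 for Cdh5 (SE 1.26, 0.98855), 1.08 for Vwf (SE 0.85, 0.70243) and -1.34 for Cd36 (SE 0.82, 0.62326). Vwf was at 564, 25.0, 150 and 1093 CPM in the early mice and at 336 and 1922 in the late ones, which overlap. No gene of any list passed. The test of whether the stage difference in EC7 differs from that in the other EC of the same mice called 0 of 7615 genes (0%) with edgeR, 426 at an unadjusted p under 0.05, and 22 with DESeq2.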

How the data were processed

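The authors deposited a matrix of raw UMI counts (36950 genes, 11492 cells) and an annotation giving each cell's mouse, stage, plate, cell type and subcluster. The tools named in the submitters' processing notes are featureCounts, Subread (1.4.6-p1) and STAR (2.5.2b), and the builds named are mm10 and GRCh37. How cells were filtered and clustered is not given in the sources used here, 3 cells have no type, and doublets were not called here. On plates G, H and K the median ratio of a cell's non-mitochondrial UMIs to the authors' annotated UMI number was 0.545, 0.805 and 0.481. EC7 held 1943164 non-mitochondrial UMIs in 13 mice.

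Counts were summed per mouse or plate, scaled to non-mitochondrial UMIs (34 mitochondrial genes left out), and compared as log2(CPM + 10) among genes with a mean of at least 20 CPM on either side. Stage was tested on summed counts with edgeR 4.0.16 (quasi-likelihood, TMM, filterByExpr, robust, Benjamini-Hochberg) in R 4.3.3, with DESeq2 1.42.0 as an alternative, and shares with permutations over mice (100000, or all splits) in scipy 1.17.1. The tests were tried on simulated data. A minimum of 10 EC7 cells per mouse leaves no early mouse, so stage was fitted with at least 5. Labels call the mice separate individuals.

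Genes were named by rule: the 15 highest and 10 lowest called genes (no predicted, mitochondrial or ribosomal protein genes), any member of the vessel bed lists, up to 4 of each state list and 3 of each other-type list, and up to 10 called stage genes with Pecam1, Cdh5, Vwf and Cd36. The members and the 34 lists were chosen with earlier results of these data known. The comparison with CM and MP of the same plate, the limit at 50% cardiomyocytes, the thinning to 3000 UMIs and the limits of 3 UMIs and 3 lymphatic genes were chosen after seeing the data. The values of 1 listed gene are not reported here.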

Additional observations from a re-analysis of the deposited data

Results flagged for a closer look

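Rbp7 in EC7 of the early mice had 1 mouse far from the others. Replicate 2 of 0w was at 3054.7 CPM, and the other early mice lay between 57.4 and 382 CPM. The gap of that mouse to the next, divided by the range, was 0.8918, above the 95% critical value of 0.829 for 4 samples. It was 1 of 15 groups tested, and chance alone flags about 1 in 20.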

How the results depend on the processing

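For EC7 against other EC per mouse, 1213 genes were higher and 1566 lower. A pseudocount of 50 CPM gave 607 and 816, scaling to all UMIs 456 higher, mice with at least 5 EC7 cells 241 and 755, and plate J 2518 higher. Leaving out either mouse gave 1861 to 2288 higher and 2344 to 2376 lower, where 1 mouse is left. For EC7 against CM and MP of the same plate, with alternatives chosen after seeing the data, a pseudocount of 50 CPM gave 46 higher and 2 lower, a pseudocount of 1 CPM gave 413 lower, and leaving out a plate gave 184 (A), 205 (C), 177 (G) or 187 (J) higher, and 386 (A) or 366 (J) lower, fewer plates having to show the same sign. The late minus early share was reversed with at least 50 EC per mouse, to -2.031 percentage points (exact permutation p = 0.1143), since 2 mice of 8w drop out, and ran from 4.505 to 14.55 without 1 mouse. The stage test's p ran from 0.00643 to 0.4286 without 1 mouse. The 2 late against early calls became 1 with RLE factors, 14 with DESeq2 and 1 to 10 without 1 mouse. The 0 calls of the difference from other EC became 22 with DESeq2 and 0 to 4 without 1 mouse. The cause was not tested. Differences of single genes near 0 changed sign when 1 mouse was left out. Late minus early ranged from -0.8416 to 1.0054 for Pecam1 (0.1352 without replicate 3 of 8w), -0.3984 to 0.1602 for Cdh5 and -0.4806 to 2.127 for Vwf. The difference from other EC ranged from -0.8971 to 0.754 for Pecam1, -0.8986 to 0.1915 for Cdh5, -0.9829 to 0.5674 for Vwf and -0.1804 to 1.0398 for Cd36, and with no filter it was 0.1558 for Pecam1 and 0.062 for Vwf. Of 352 recomputed values of the named genes, 269 moved by less than the spread, and 83 moved further. Many of the 269 were fixed in advance. Leaving out 1 of 2 mice always moves a mean by less than their SD. The values also stay the same without the level filter, and without plates G, H and K, which hold no cells of these 2 mice. The count is therefore no measure of stability. Vwf, Npr3 and Prox1, which were called neither higher nor lower, changed sign in 8 of the 352 values, and no called gene did. For called genes this was fixed where 1 mouse was left out, since a call needs the same sign in both mice. Fits with at least 20 EC7 cells, with at least 10 per mouse for stage, and of 5w against early left too few mice. Leaving out the EC with the highest cardiomyocyte, fibroblast or macrophage list levels, by limits set over all EC, also left too few. Only 15 of 65 EC7 cells were within these limits. No paired analysis was possible because the groups compared share only replicate number 2, and the numbers name different mice. With 65 cells, genes at a few CPM rest on single UMIs.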
